A study of Mus musculus with 28 samples.

Results

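The subunits of the mitochondrial respiratory chain were followed in livers of wild-type (WT) mice and of mice lacking Aag, the alkyladenine DNA glycosylase encoded by Mpg. Members were all probe sets of the array that carried a single gene symbol starting with Nduf, Sdha, Sdhb, Sdhc, Sdhd, Uqcr, Cox4, Cox5, Cox6, Cox7, Cox8 or Atp5. This rule found 100 of the 12488 probe sets, for 73 genes, and each was assigned by its prefix to a complex. Complex I held 42 probe sets of 31 genes, complex II 6 of 6, complex III 7 of 7, complex IV 23 of 15 and complex V 22 of 14. The prefixes also took in Ndufaf1, Ndufaf4, Sdhaf1 and Sdhaf2, which are assembly factors, and Cox7a2l, which helps to join complexes III and IV. Of the 100 probe sets 81, for 67 genes, were bright enough to be tested, with 34 in complex I, 5 in complex II, 7 in complex III, 15 in complex IV and 20 in complex V. A probe set counted as bright enough when it exceeded its array's median in 2 or more arrays. Ndufa1 (98118_at) and Ndufs4 would not have met this without the untreated arrays, where they were high, nor Atp5d (94279_at) without treated arrays, so the direction of these 3 is tied to the filter. The 19 that were too dim included Cox5a, Cox7a1, Cox8a, Ndufc2 and Atp5j2. Total liver RNA was hybridised to 28 Affymetrix MG-U74Av2 arrays, on which each transcript is read by a set of short probes. The 10 groups were WT untreated (3 arrays), WT at 6 h (2), 12 h (3), 24 h (2) and 48 h (2) after methyl methanesulfonate (MMS, an agent that methylates DNA bases), Aag null untreated (4 arrays), and Aag null at 6 h (3), 12 h (2), 24 h (4) and 48 h (3) after MMS. The sources used here give no strain, age, sex, dose, route or form of the Aag null allele. All values are log2 signals, and differences are on the same scale.

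The respiratory chain of the inner mitochondrial membrane passes electrons from NADH, through complex I, and from succinate, through complex II, to ubiquinone, then through complex III and cytochrome c to complex IV, which reduces oxygen. Complexes I, III and IV pump protons, and complex V, the ATP synthase, uses the resulting gradient to make ATP. Hepatocytes are rich in mitochondria. Most subunits are encoded in the nucleus, and their promoters are known for sites of the factors NRF1, GABP (of the ETS family) and YY1.

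Promoter sequences are shown because letters of these elements, which the rule did not use, are more frequent among the members' promoters than among all promoters. RefSeq promoters (GRCm38.p6, 250 bases before to 50 after the start, 300 in all) were found for 60 of the 73 genes, 65 promoters in total. The NRF1 letters, GCGCA and GCGC with any base N between them, were in 13 of these 65, or 20.0%, against 4.6% of all 32851 promoters of the same length. The ETS letters CCGGAAG were in 18, or 27.7%, against 8.86%, and the YY1 letters AAGATGGCG were in 5, or 7.69%, against 1.4%. Both strands were searched, and 31 of the 60 genes held at least 1 of the 3 motifs. Overlaps between matches of different motifs were allowed. Of 17 genes with a promoter that were lower in WT liver at 6 h, 4 held the NRF1 letters, 4 the ETS letters and 1 the YY1 letters. A match is a run of letters and not a shown binding site. The 180 bases before the start are printed for 5 members described below, 5′ to 3′ on the gene's strand, with matches in capitals. Sdha holds 3 NRF1 matches, Sdhd an NRF1 and an ETS match, Uqcr11 an ETS match, Cox6a1 2 separate NRF1 matches and an ETS match, and Atp5g2 an NRF1 match.
Sdha (chr13:74350241-74350420, minus strand): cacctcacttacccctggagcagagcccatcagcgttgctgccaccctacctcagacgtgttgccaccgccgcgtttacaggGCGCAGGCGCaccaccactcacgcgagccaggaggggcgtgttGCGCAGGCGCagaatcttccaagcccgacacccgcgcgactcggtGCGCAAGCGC
Sdhd (chr9:50603850-50604029, minus strand): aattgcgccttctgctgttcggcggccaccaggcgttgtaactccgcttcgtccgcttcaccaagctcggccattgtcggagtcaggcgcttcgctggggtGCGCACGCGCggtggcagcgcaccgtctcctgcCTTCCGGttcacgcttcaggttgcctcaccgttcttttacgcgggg
Uqcr11 (chr10:80406822-80407001, minus strand): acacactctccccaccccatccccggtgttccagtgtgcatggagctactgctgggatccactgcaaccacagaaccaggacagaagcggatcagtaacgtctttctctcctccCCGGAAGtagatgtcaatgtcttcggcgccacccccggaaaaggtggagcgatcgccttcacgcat
Cox6a1 (chr5:115348959-115349138, minus strand): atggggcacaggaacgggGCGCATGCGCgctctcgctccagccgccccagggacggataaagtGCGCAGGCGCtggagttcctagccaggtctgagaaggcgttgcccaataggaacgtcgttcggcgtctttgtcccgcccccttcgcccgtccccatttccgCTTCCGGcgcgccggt
Atp5g2 (chr15:102671048-102671227, minus strand): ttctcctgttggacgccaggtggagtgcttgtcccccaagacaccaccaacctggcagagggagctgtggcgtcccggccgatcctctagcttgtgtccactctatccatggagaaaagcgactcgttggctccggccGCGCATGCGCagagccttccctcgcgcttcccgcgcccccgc

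By their 9 hybridization controls, foreign transcripts added to every sample before hybridization, the arrays divide into a high and a lower set. The mean control signal was 10.25 to 11.65 in 5 arrays, namely all 3 arrays of WT untreated liver with replicates 3 and 4 of Aag untreated liver, and 6.42 to 9.22 in the other 23. The Gapdh signal at the 3′ end minus that at the 5′ end, a sign of RNA integrity, was 0.63 to 0.92 in the high set and -0.37 to 0.21 in the lower set. Within Aag untreated liver members moved with the set. There the high set exceeded the lower set by a median of 0.37 over the 81 members, 65 of them above 0. The median over all 7261 probe sets tested was -0.03. By complex the median difference was 0.46 for I, 0.39 for II, 0.57 for III, 0.35 for IV and 0.21 for V. All WT untreated arrays lie in the high set and all treated arrays in the lower set, so a WT response to MMS has no value within a set. The part of the set in such a response was not tested beyond a fit with the set as a term. This is called the set term and is given beside some of the results only. Of 46 calls (adjusted p under 0.05) named below, 42 were lost with this term, 2 turned in sign and 2 remained. That term rests on 2 high-set and 2 lower-set arrays of Aag untreated liver. Of the high-set ones replicate 3 has female-typical transcripts and replicate 4 has not, and the level over all members was 0.33 and 0.29 in them, against -0.10 and 0.09 in the lower set. The other arrays with female-typical transcripts are Aag 24 h replicates 1 and 2. In the WT untreated arrays, all of the high set, the level over all members was 0.28, 0.19 and -0.08. The last lies within the lower-set range of -0.38 to 0.14. Hepatocyte markers averaged 8.96 to 9.38 in every array, and none of the 4 bile duct probe sets was above the filter. Erythroid markers, all 3 above the filter, averaged 6.82 to 7.06 in WT untreated arrays, 6.07 to 6.58 in WT treated, 5.88 to 6.75 in Aag untreated and 5.91 to 6.66 in Aag treated arrays. Mpg itself was above the array median in 0 arrays and its ranges overlapped (2.38 to 2.87 in 12 WT arrays, 2.27 to 2.60 in 16 Aag arrays), so it checks nothing here. Nothing in the labels ties a replicate to its own animal, and p-values measure the spread between these arrays, whose number limits the precision. In whole liver, fewer cells of a type and less RNA per cell cannot be told apart.

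The first question was whether respiratory chain transcripts change in WT liver after MMS. They were mostly lower, most widely at 6 and 12 h. Called means that limma's adjusted p, over all 7261 probe sets tested, was under 0.05. At 6 h 21 of the 81 members fell and 0 rose, against a background of 10.1% of all probe sets lower and 8.26% higher, and 34 members had an unadjusted p under 0.05. At 12 h 17 fell and 3 rose (background 10.7% lower, 11.6% higher). At 24 h 10 fell and 0 rose (8.17% lower, 7.2% higher), with 20 at an unadjusted p under 0.05, and at 48 h 7 fell and 2 rose (9.21% lower, 7.4% higher). Without Ndufa1 (98118_at) and Ndufs4, 19, 15, 8 and 6 members fell at the 4 times. The median difference of the members was -0.38, -0.29, -0.07 and -0.04 at 6, 12, 24 and 48 h, against 0.02, 0.05, 0.04 and 0.03 over all probe sets. At 24 and 48 h the share of members that fell is near the background. Groups that did not overlap, with all treated arrays below or above all untreated ones, were found for 25 lower and 1 higher members at 6 h (background 13.2% and 12.5%), 31 and 5 at 12 h (18.2% and 23.5%), 17 and 9 at 24 h (19.3% and 24.4%), and 16 and 12 at 48 h (18.6% and 19.7%). As deposited, without scaling between arrays, all probe sets moved by a median of 0.12, 0.14, 0.15 and 0.12, and the members by -0.31, -0.21, 0.01 and 0.06, so the sign at 24 and 48 h turns with the scaling. With the set term 1, 1, 1 and 0 members were lower at the 4 times (background 0.909%, 1.32%, 1.28% and 1.46%) and 0, 0, 1 and 1 higher (0.978%, 1.79%, 2.29% and 1.86%), with medians of -0.12, 0.02, 0.23 and 0.23. The member lower with the term at 6, 12 and 24 h was Ndufs4, whose direction is tied to the filter. Leaving out WT 6 h replicate 1 gave 40 calls at 6 h, 2 higher and 38 lower. At 24 h there were 6 calls without WT 24 h replicate 1 and 4 without replicate 2, and at 48 h 3 without WT 48 h replicate 2.

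Across the 4 WT times, which share the 3 WT untreated arrays, 23 probe sets fell at 1 or more times and 7 at all 4. No share over all probe sets is given for these counts, so they are not read against a background. These 7 were Ndufa1 (98118_at), Uqcrc2 (102000_f_at), Cox4i1 (102124_f_at), Cox6c (100551_r_at), Cox8b (160851_r_at), Atp5g2 (102134_f_at) and Atp5d (161145_f_at), of which Ndufa1 passed the filter through untreated arrays alone. All the others have a letter in the probe set name, a mark explained below. The 4 that rose at some time were Ndufv1, Sdhc, Sdhd and the Atp5d probe set 94279_at, which passed the filter through treated arrays alone. Fitted means below the untreated mean at all 4 times were found for 38 of 81 members in WT and for 47 of 81 in Aag liver, and above it for 10 and 9. By complex, the median difference at 6 h was -0.41 for I, -0.12 for II, -0.67 for III, -0.59 for IV and -0.18 for V. At 48 h it was -0.12, -0.12, -0.07, -0.22 and 0.10.

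**Figure D1:**
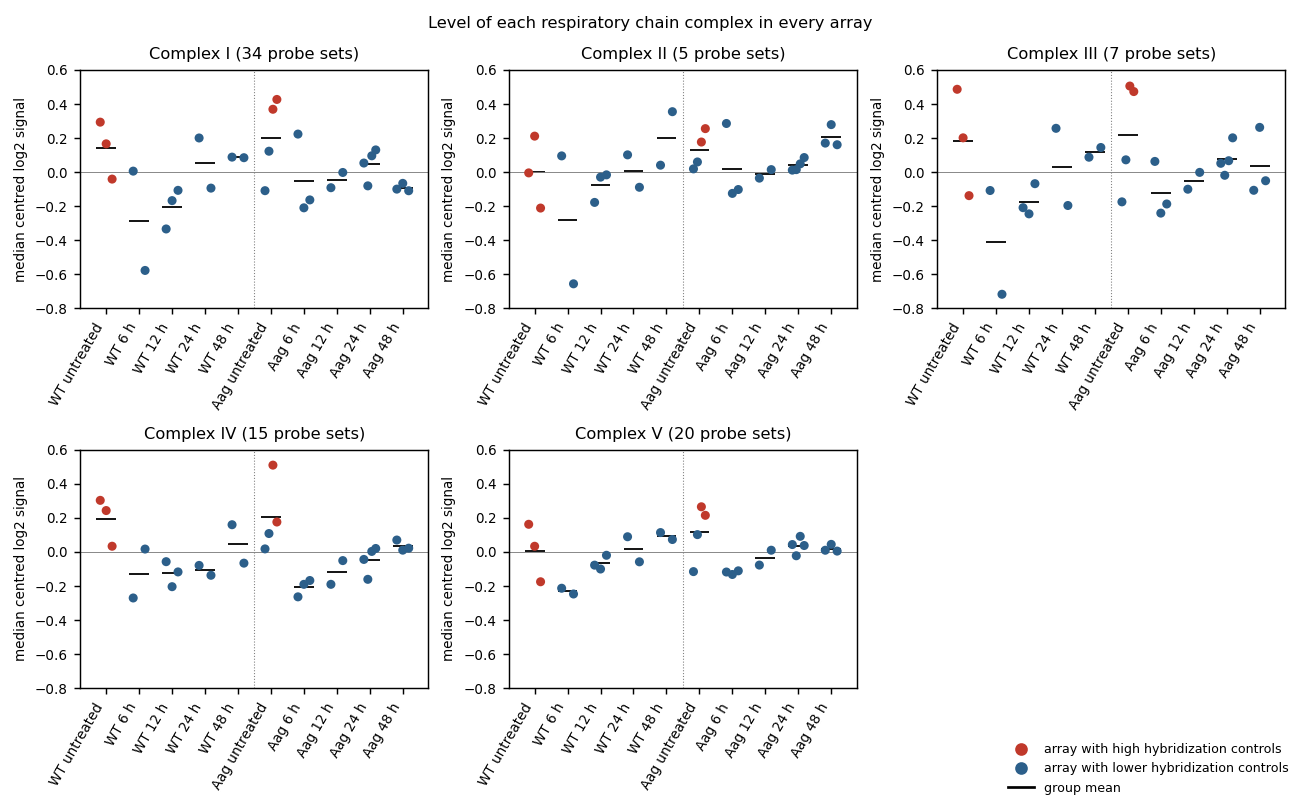
Level of complexes I to V in each of the 28 arrays, as the median over the complex's tested probe sets of the log2 signal centred on each probe set's mean over all arrays; the groups are along the x axis, bars are group means, and red marks the 5 arrays with high hybridization controls. The WT 6 h group has the lowest mean in complexes I, II, III and V, and its replicates lie far apart in complexes I (0.01 and -0.58), II (0.09 and -0.66) and III (-0.11 and -0.72).

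Complex I oxidises NADH through a peripheral arm that holds Ndufs1, Ndufv1, Ndufv2 and Ndufs4 and a membrane arm rich in Ndufa and Ndufb subunits. Its level, centred as in the plot of complex levels, went from 0.14 ± 0.17 (SD, n = 3) in untreated WT liver to -0.29 ± 0.41 (n = 2) at 6 h. It was -0.20, 0.05 and 0.09 at the later times. At 6 h 9 of its 34 tested probe sets fell and 0 rose, at 12 h 7 fell and 1 rose, at 24 h 3 fell and at 48 h 1 fell. Of all probe sets 10.1%, 10.7%, 8.17% and 9.21% were lower at these times, and 8.26%, 11.6%, 7.2% and 7.4% higher. The complex I counts at 24 and 48 h are near or below this background. The Ndufa1 probe set 98118_at, for a small membrane-arm subunit, read 3.79, 5.08 and 4.51 in WT untreated arrays, 2.45 and 3.30 at 6 h and 2.37, 2.61 and 2.65 at 12 h. All its treated arrays also lie below the array median of 4.10, at 2.35 to 3.30, where it was above it in 3 of 7 untreated arrays, so the size of the change is against a dim signal. It fell by 1.59 at 6 h (SE 0.36, adjusted p = 0.0042) and by 1.91 at 12 h (SE 0.32, adjusted p = 0.000238). The other Ndufa1 probe set, 98117_at, read 5.35, 5.26 and 4.81 untreated and 4.63 and 5.40 at 6 h, where the groups overlap. Ndufs4, an accessory subunit on the NADH side whose loss impairs complex I, read 4.42, 4.28 and 4.12 untreated, 3.80 and 3.58 at 6 h, 3.73, 3.84 and 3.85 at 12 h, 3.84 and 3.67 at 24 h and 3.82 and 3.95 at 48 h. No treated WT array reached the untreated range, and 1 of the 21 treated arrays of either genotype was above the array median, against 5 of 7 untreated ones. It fell by 0.58 (SE 0.14, adjusted p = 0.00555), 0.46 (adjusted p = 0.00889) and 0.52 (adjusted p = 0.012) at 6, 12 and 24 h. Its response was as large with the set term, where it fell by 0.82 (adjusted p = 0.0235), 0.70 (adjusted p = 0.0324) and 0.76 (adjusted p = 0.0265). It was the only member lower under that term at 6, 12 or 24 h, but its direction is tied to the brightness filter. Its high-set arrays of Aag untreated liver lay 0.24 below those of the lower set, opposite to most members.

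Ndufb5, a membrane-arm subunit, read 8.70, 8.87 and 8.49 untreated and 8.09 and 7.39 at 6 h, and fell by 0.94 (SE 0.23, adjusted p = 0.00757). In Aag untreated liver its high-set arrays exceeded the lower-set ones by 0.71. Ndufa13, also known as GRIM-19, read 6.80, 6.85 and 6.46 untreated and 6.08 and 6.11 at 6 h, and fell by 0.61 there, by 0.76 at 12 h and by 0.60 at 24 h. In both genes the 6 h arrays lie below all untreated arrays. Ndufb8, Ndufb10, Ndufb2 (95131_f_at), Ndufv2 (162327_f_at) and Ndufa6 fell by 0.64 to 1.16 at 6 h, and these 5 were named after their values were seen. Of the peripheral arm, Ndufv1 and Ndufs1 were not among those called lower, unlike Ndufs4 and Ndufv2 (162327_f_at). The other Ndufv2 probe set, 94062_at, had a mean of 6.45 untreated and 5.98 at 6 h and was not called. Ndufv1, which binds NADH and flavin, read 8.56, 8.43 and 8.91 untreated and 8.99, 9.04 and 9.11 at 12 h, without overlap, and rose by 0.42 (SE 0.14, adjusted p = 0.0414). The rise was 0.02 (adjusted p = 0.972) with the set term. Ndufs1, which carries iron-sulfur clusters, read 6.26, 6.31 and 6.67 untreated and 6.58 and 5.53 at 6 h, a difference of -0.36 that was not called and that became -0.88 (adjusted p = 0.00322) without WT 6 h replicate 1. Calls that ended without an array were those of Ndufa1 at 6 h (WT 6 h replicate 1, adjusted p = 0.0517), Ndufb5 at 6 h (WT 6 h replicate 2, adjusted p = 0.0974), Ndufa13 and Ndufs4 at 24 h (WT 24 h replicate 2, adjusted p = 0.18 and 0.163), and Ndufv1 at 12 h, which ended without any of 5 of its 6 arrays (adjusted p = 0.0745 to 0.166).

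Complex II, succinate dehydrogenase, joins the citric acid cycle to the chain through the flavoprotein Sdha, the iron-sulfur protein Sdhb and the membrane anchors Sdhc and Sdhd, which bind ubiquinone. In WT liver Sdhb fell early while both anchors rose later. Sdhb read 8.70, 8.45 and 8.36 untreated, 7.95 and 7.47 at 6 h, and 7.63, 7.69 and 7.95 at 12 h. The groups do not overlap, and Sdhb fell by 0.79 at 6 h (SE 0.16, 0.578-fold, adjusted p = 0.00248) and by 0.75 at 12 h (adjusted p = 0.000989). It was -0.40 at 24 h and -0.25 at 48 h, not called. Sdhd read 8.40, 8.47 and 8.40 untreated, 8.66 and 8.34 at 6 h, 8.74, 8.80 and 8.81 at 12 h, 8.97 and 8.53 at 24 h, and 8.95 and 9.18 at 48 h. From 12 h on, every WT array lies above the untreated ones, and Sdhd rose by 0.36 at 12 h (SE 0.12, adjusted p = 0.0297) and by 0.65 at 48 h (SE 0.13, 1.57-fold, adjusted p = 0.00192). Sdhc read 8.05, 7.35 and 7.83 untreated and 8.40 and 8.68 at 48 h, again without overlap, and rose by 0.79 there (SE 0.20, 1.73-fold, adjusted p = 0.00902). No call remained in complex II with the set term. Sdhb was -0.36 at 6 h (adjusted p = 0.439), Sdhd 0.67 at 48 h (adjusted p = 0.0612) and Sdhc 0.57 (adjusted p = 0.285). In Aag untreated liver the high set exceeded the lower set by 0.43 for Sdhb, by 0.02 for Sdhd and by -0.22 for Sdhc. The 48 h calls of Sdhd and Sdhc ended without WT 48 h replicate 2 (adjusted p = 0.0589 and 0.131), and the 12 h call of Sdhd without any of 5 of its 6 arrays (adjusted p = 0.0578 to 0.0851).

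The Sdha replicates lay far apart at 6 and 48 h. Sdha read 5.73, 5.50 and 5.61 in WT untreated liver, 6.13 and 3.87 at 6 h, 4.58, 4.87 and 4.80 at 12 h, 5.24 and 5.30 at 24 h, and 4.93 and 5.97 at 48 h. The 12 and 24 h arrays lie below all untreated arrays while those at 6 and 48 h straddle them. The differences of -0.61, -0.86, -0.34 and -0.16 were not called. Without WT 6 h replicate 1 the 6 h difference was -1.73 (adjusted p = 0.00646).

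**Figure D2:**
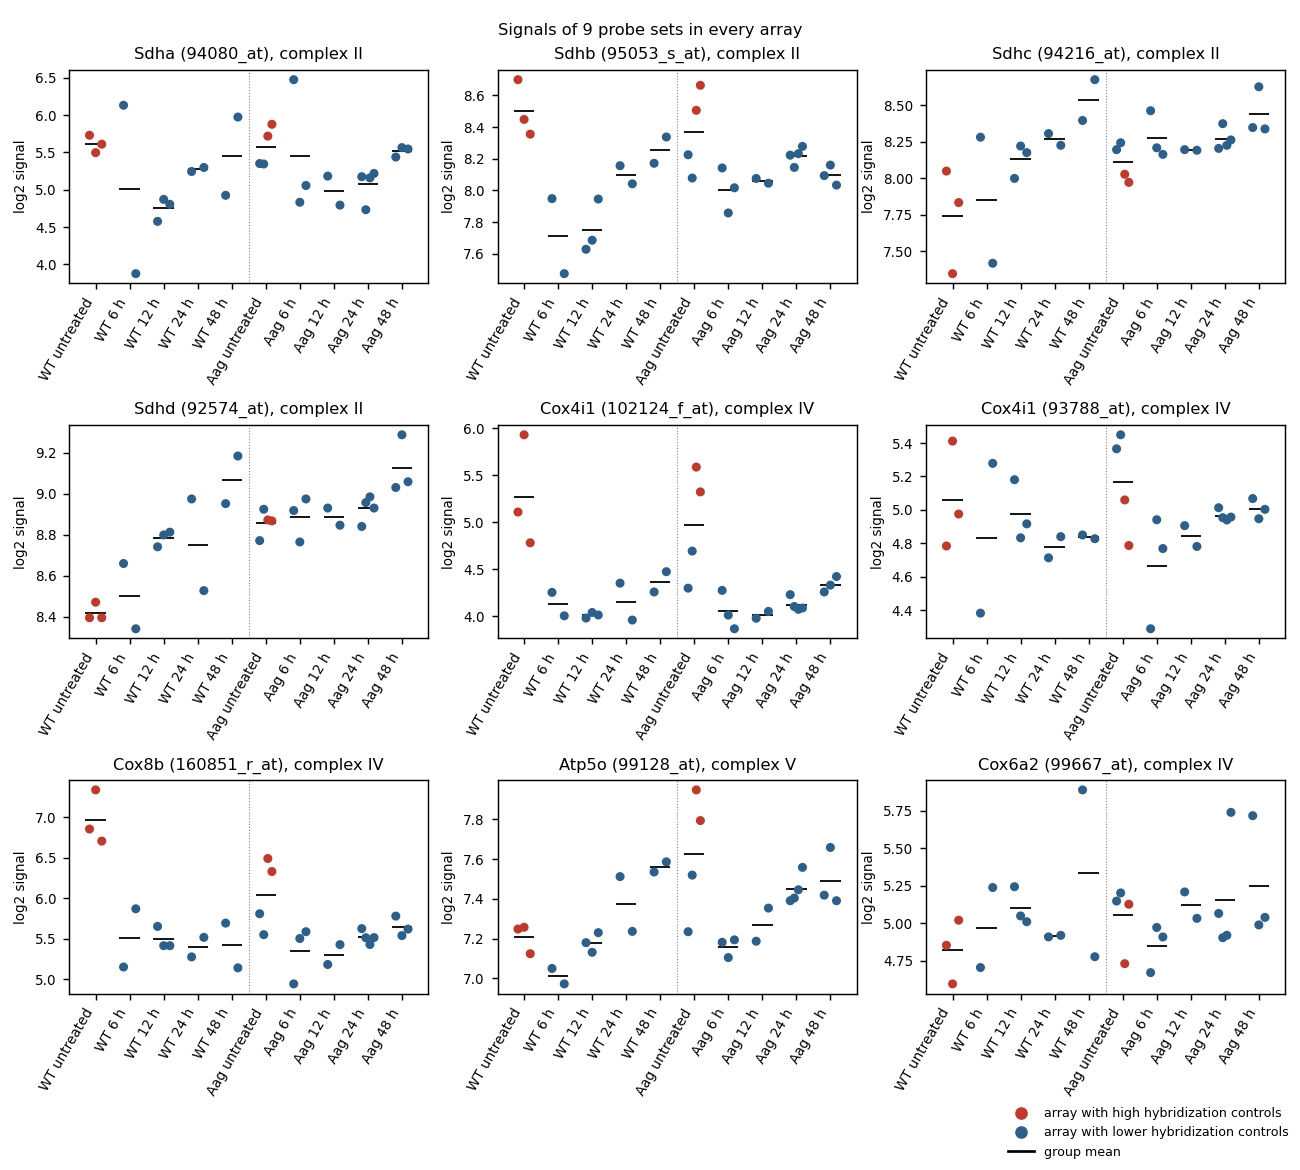
Log2 signals of 9 probe sets of complexes II, IV and V in each of the 28 arrays, by group; bars are group means, and red marks the 5 arrays with high hybridization controls. Sdhb is lower and Sdhd higher in WT arrays at 12 h than in any WT untreated array, and the Cox8b and Cox4i1 (102124_f_at) panels separate the WT untreated arrays from all treated arrays.

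Complex III passes electrons from ubiquinol to cytochrome c and is built around core proteins such as Uqcrc1 and Uqcrc2 and small subunits such as Uqcrb, Uqcrh, Uqcrq, Uqcr10 and Uqcr11. It had the largest share of members lower at 6 h in WT liver, 5 of 7, with 0 higher, and 2, 1 and 1 were lower at 12, 24 and 48 h. The background over all probe sets was 10.1%, 10.7%, 8.17% and 9.21% lower at the 4 times, and 8.26% higher at 6 h. Uqcrc1 read 8.12, 8.0 and 8.18 untreated, 7.80 and 7.59 at 6 h, 7.79, 7.95 and 7.99 at 12 h, 8.14 and 8.18 at 24 h, and 8.05 and 8.0 at 48 h. Its 6 and 12 h arrays lie below the untreated ones and the later arrays at about their level, and it fell by 0.41 at 6 h (SE 0.13, adjusted p = 0.0326). Uqcrc2 read 7.78, 7.95 and 7.78 untreated and 7.31 and 7.03 at 6 h, with every treated WT array below the untreated range. It fell by 0.67, 0.71, 0.64 and 0.54 at the 4 times (adjusted p = 0.049 at 48 h). Uqcrb, which read 8.45, 7.91 and 8.22 untreated and 7.62 and 6.76 at 6 h, fell by 1.00 (SE 0.30, adjusted p = 0.0258). Uqcr11 fell by 0.95, and Uqcrh, the hinge protein beside cytochrome c1, by 0.72 although its groups overlap. Uqcrb, Uqcr11, Uqcrh and Uqcrc2 at 6 h were named after their values were seen. None of the 7 was called with the set term, Uqcrb was 0.00 at 6 h, and Uqcrc2 turned to 0.03 at 48 h (adjusted p = 0.948). In Aag untreated liver Uqcrb was 1.00 higher in the high set than in the lower set. The call of Uqcrc1 ended without WT untreated replicate 1 or 3 or WT 6 h replicate 2 (adjusted p = 0.0717, 0.0764 and 0.155). That of Uqcrc2 ended at 24 h without WT untreated replicate 2 or either 24 h array (adjusted p = 0.0651 to 0.173), and at 48 h without any of the 5 arrays compared (adjusted p = 0.0638 to 0.338).

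Complex IV, cytochrome c oxidase, has tissue forms of several subunits. Cox4i1 and Cox6a1 are the forms of liver, Cox6a2, Cox7a1 and Cox8b are forms of heart and skeletal muscle, and Cox6b2 is a form of testis. In WT liver 4 of the 15 tested probe sets fell at each of 6, 12 and 24 h and 3 fell at 48 h, with 0 higher at each time. The background over all probe sets was 10.1%, 10.7%, 8.17% and 9.21% lower and 8.26%, 11.6%, 7.2% and 7.4% higher. Cox8b (160851_r_at) gave the smallest adjusted p of any member at all 4 times. It read 6.86, 7.34 and 6.71 untreated, 5.15 and 5.87 at 6 h, 5.65, 5.41 and 5.41 at 12 h, 5.27 and 5.52 at 24 h, and 5.69 and 5.14 at 48 h. Treated WT arrays (5.14 to 5.87) all lie below the untreated ones, and it fell by 1.46 at 6 h (SE 0.26, 0.364-fold, adjusted p = 0.000781), 1.47 at 12 h (adjusted p = 0.00013), 1.57 at 24 h and 1.55 at 48 h (adjusted p = 0.000391). With the set term these were -0.73, -0.74, -0.84 and -0.82, with adjusted p of 0.286, 0.234, 0.173 and 0.167. The lower-set Aag untreated arrays read 5.81 and 5.55 and the high-set ones 6.49 and 6.33, a difference of 0.73.

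Cox4i1 is read by probe sets that differ in the size of their response. The 102124_f_at set read 5.11, 5.93 and 4.78 untreated, 4.25 and 4.00 at 6 h, 3.98, 4.04 and 4.01 at 12 h, 4.35 and 3.96 at 24 h and 4.26 and 4.47 at 48 h, with no overlap. It fell by 1.14, 1.26, 1.12 and 0.91 (adjusted p = 0.00764 at 6 h), but with the set term it was -0.19, -0.30, -0.16 and 0.05. Its signal is dim, above the array median of 4.10 in 7 of 7 untreated but in 10 of 21 treated arrays. The 93788_at set read 4.78, 5.41 and 4.98 untreated and 4.38 and 5.28 at 6 h, so the groups overlap, and its differences of -0.23, -0.08, -0.28 and -0.22 were not called. The set difference in Aag untreated liver was 0.96 for 102124_f_at and -0.48 for 93788_at. Cox6a1 read 9.91, 10.10 and 9.55 untreated and 9.11 and 9.14 at 6 h, where it fell by 0.72 (SE 0.17, adjusted p = 0.00635). It was -0.35, -0.27 and -0.30 later, not called. In Aag untreated liver the high set exceeded the lower set by 0.56 for Cox6a1. Cox6c (100551_r_at) read 5.38, 6.35 and 5.60 untreated and 4.71, 4.35 and 4.20 at 12 h, and fell by 1.35 there and by 1.57 at 24 h. The other Cox6c probe sets were not called. Over the 4 times 100550_f_at was -0.60, -0.31, -0.09 and 0.23, and 162319_i_at was -0.59, -0.36, -0.65 and -0.55. Cox6b2 (160813_r_at) fell by 1.30 at 12 h and 1.32 at 24 h. It spread from 4.31 to 6.14 in WT untreated arrays, and was above the array median in 13 of 21 treated arrays. The other Cox6b2 probe sets, 97351_i_at and 97352_f_at, were too dim to be tested. Calls that ended without an array were those of Cox6b2 at 24 h (without WT 24 h replicate 1 or 2, adjusted p = 0.0713 and 0.0694), of Cox4i1 at 24 h (WT untreated replicate 2 or WT 24 h replicate 2, adjusted p = 0.0544 and 0.148) and at 48 h (WT untreated replicate 2 or either 48 h array, adjusted p = 0.0963 to 0.163), and of Cox6c at 48 h (WT untreated replicate 2 or WT 48 h replicate 2, adjusted p = 0.12 and 0.342).

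Complex V makes ATP in a rotary head of alpha, beta, gamma, delta and epsilon subunits, driven by a ring of c subunits and held by a stalk. Its level went from 0.01 ± 0.17 (SD, n = 3) in untreated WT liver to -0.23 ± 0.02 (n = 2) at 6 h, and -0.07, 0.02 and 0.09 later. Of its 20 tested probe sets 2 fell at each of 6, 24 and 48 h, and 3 fell and 1 rose at 12 h. The background over all probe sets was 10.1%, 8.17% and 9.21% lower at 6, 24 and 48 h, so these counts are near it. At 12 h it was 10.7% lower and 11.6% higher. Atp5a1, the alpha subunit, read 8.36, 8.32 and 8.57 in WT untreated arrays, and its differences of -0.07, 0.01, 0.19 and 0.19 were not called. Those of the gamma subunit Atp5c1 were -0.11, -0.08, 0.07 and 0.41 on 92798_at and -0.67, -0.57, -0.24 and 0.10 on 92799_g_at, none called, though the 6 h value of 92799_g_at was -1.42 (adjusted p = 0.00128) without WT 6 h replicate 1. The c subunit gene Atp5g2 (102134_f_at) read 6.27, 6.30 and 6.04 untreated, 5.26 and 5.39 at 6 h and 5.17, 5.40 and 5.35 at 12 h, without overlap. It fell by 0.88, 0.89, 0.67 and 0.79 at the 4 times (adjusted p = 0.0015 at 6 h), and by 0.11 to 0.33 with the set term, where it was not called. Its other probe set, 92570_at, read 4.83, 3.49 and 3.90 untreated and 3.79 and 4.47 at 6 h, where the groups overlap.

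Atp5d, the delta subunit of the head, showed how far probe sets of a gene can part. Its 161145_f_at set read 7.08, 7.36 and 7.23 untreated and 6.67, 6.46 and 6.61 at 12 h, and fell by 0.64 there (SE 0.14) and by 0.72, 0.60 and 0.68 at 6, 24 and 48 h. Its 94279_at set read 3.63, 3.52 and 3.83 untreated and 4.44, 4.21 and 4.07 at 12 h, and rose by 0.58 (SE 0.14, adjusted p = 0.0062). Both lack overlap at 12 h, in opposite directions. The 94279_at set is dim, above the array median in 0 of 7 untreated and 5 of 21 treated arrays, so its direction is tied to the filter. Atp5o, the stalk protein that links head and base, read 7.25, 7.26 and 7.12 untreated and 7.54 and 7.59 at 48 h. Its difference of 0.35 was not called (adjusted p = 0.127), but with the set term it was 0.84 (adjusted p = 0.00855), and 0.66 (adjusted p = 0.0409) at 24 h. Atp5o was named after its values were seen. The calls of Atp5d 161145_f_at ended at 6 h without WT 6 h replicate 1 (adjusted p = 0.0723), at 24 h without WT untreated replicate 2 or either 24 h array (adjusted p = 0.0501 to 0.149), and at 48 h without WT 48 h replicate 2 (adjusted p = 0.0901). That of Atp5g2 ended at 24 h without WT 24 h replicate 2 (adjusted p = 0.145) and at 48 h without WT 48 h replicate 1 (adjusted p = 0.0775).

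**Figure D3:**
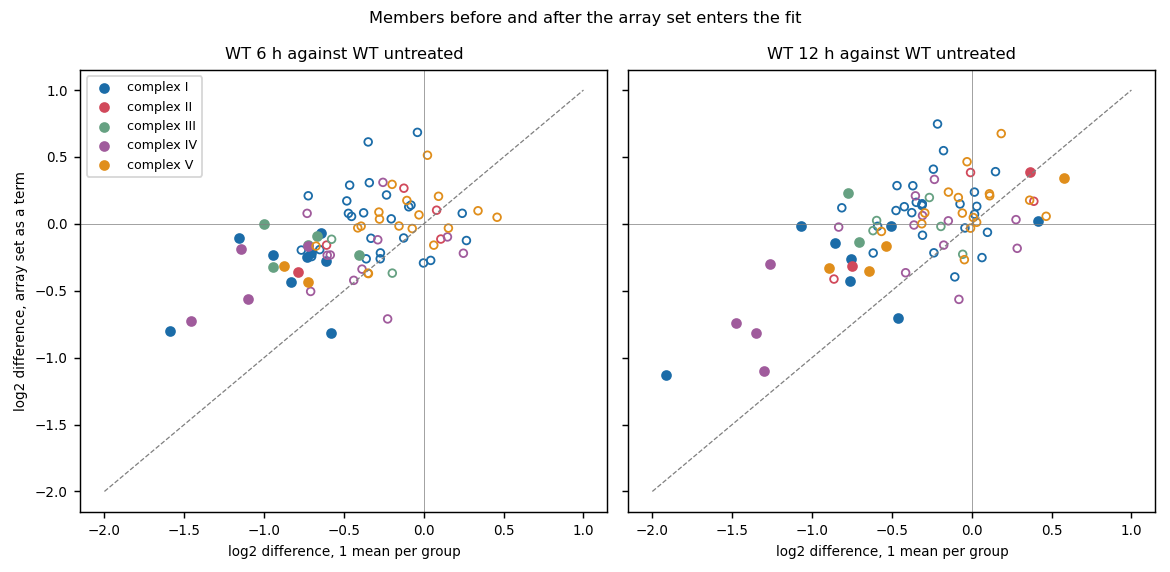
Log2 difference of each of the 81 tested members from WT untreated liver at 6 h (left) and 12 h (right), with a mean per group alone (x axis) and with the set term (y axis); filled points were called without the term, colours give the complex and the dashed line marks equal values. Most called points lie above the line, nearer to 0 with the term, and at 6 h the filled complex I point at -0.58 and -0.82, Ndufs4, lies below it.

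In Aag null liver the median member was also below untreated liver after MMS, and 1 member was called over the 4 times. Medians over the 81 members were -0.23, -0.23, -0.11 and -0.17 at 6, 12, 24 and 48 h, against 0.00, 0.02, 0.02 and 0.01 over all probe sets. At 6 h 1 member fell and 0 rose by limma, with 22 at an unadjusted p under 0.05 and a background of 0.551% lower and 0.441% higher. At 12, 24 and 48 h limma called 0 members (background 0.303%, 1.29% and 0.826% in either direction), with 12, 13 and 16 at an unadjusted p under 0.05. Lower without overlap were 6, 17, 8 and 8 members at the 4 times (background 4.89%, 12.1%, 6.69% and 8.17%), and higher 0, 1, 3 and 3 (4.12%, 12.1%, 6.38% and 8.51%). By complex the 6 h medians were -0.23, 0.03, -0.38, -0.26 and -0.23 for I to V, and those at 48 h -0.29, 0.05, -0.16, -0.17 and -0.16. The member called at 6 h was Atp5pb, the b subunit of the ATP synthase stalk. It read 4.28, 4.79, 4.67 and 4.59 untreated and 4.06, 4.02 and 4.22 at 6 h, without overlap, and fell by 0.48 (SE 0.11, 0.716-fold, adjusted p = 0.0429). The call ended without any of 6 of its 7 arrays, all but Aag untreated replicate 1 (adjusted p = 0.0553 to 0.154). Next came Cox4i1 (102124_f_at), at -0.92 (adjusted p = 0.0526), whose Aag untreated arrays read 4.30 and 4.69 in the lower set and 5.59 and 5.32 in the high set, and 4.27, 4.01 and 3.87 at 6 h. Without Aag untreated replicate 1 it was called at all 4 times, at -1.15, -1.19, -1.08 and -0.86, and the members called numbered 8, 3, 6 and 14. Without Aag untreated replicate 2 there were 3 calls at 6 h and 2 at 24 h. Replicates 1 and 2 are the lower-set ones, so without either most untreated arrays left were of the high set, while all treated arrays are of the lower set. No share of all probe sets is given for these counts.

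Aag responses can also be taken within the lower set, against its 2 untreated arrays. There the members' medians were -0.10, -0.06, 0.06 and -0.02 at 6, 12, 24 and 48 h. Limma called 0 members at each time (background 0.208%, 0.457%, 1.08% and 0.0692% of 7221 probe sets), with 7, 4, 6 and 5 at an unadjusted p under 0.05. Against all 4 untreated arrays the complex II anchors differed by 0.03, 0.03, 0.07 and 0.27 for Sdhd and by 0.17, 0.08, 0.16 and 0.33 for Sdhc, none called.

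Untreated Aag null liver differed from untreated WT liver in 2 of the 81 members, 1 higher and 1 lower (background 2.18% higher, 2.77% lower), and 4 higher and 3 lower members had groups that did not overlap (6.79% and 6.11%). The set term left 1 call (background 2.95% in either direction). Sdhd read 8.77, 8.92, 8.87 and 8.87 in Aag and 8.40, 8.47 and 8.40 in WT untreated liver, without overlap. It was 1.35-fold higher in Aag liver (log2 0.44, SE 0.11, adjusted p = 0.0241), and 0.45 (adjusted p = 0.0634) with the set term. The high-set Aag arrays were 0.02 above the lower-set ones. Thus the WT rise of Sdhd to 8.95 and 9.18 at 48 h started from arrays below every Aag array, which ranged from 8.77 to 9.29. Cox8b read 5.55 to 6.49 in Aag and 6.71 to 7.34 in WT untreated arrays, and was -0.92 (SE 0.21, adjusted p = 0.0174), but -0.56 (adjusted p = 0.167) with the term. Atp5o was 0.41 (adjusted p = 0.0616), and 0.66 (adjusted p = 0.00387) with the term. The call of Sdhd ended without WT untreated replicate 1 or Aag untreated replicate 2 (adjusted p = 0.0667 and 0.06), and that of Cox8b without WT untreated replicate 2 or Aag untreated replicate 1 or 2 (adjusted p = 0.0848, 0.0513 and 0.0572). In all there were 4 calls without WT untreated replicate 3 or Aag untreated replicate 3, 1 without WT untreated replicate 2 and 0 without Aag untreated replicate 2.

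Whether the response depends on Aag was tested as the Aag response minus the WT response at each time. Limma called 0 members at 6, 12, 24 and 48 h (background 0.165%, 0.0826%, 0.0275% and 0.248% in either direction), with 5, 2, 5 and 9 at an unadjusted p under 0.05. The medians were 0.17, 0.08, 0.01 and -0.12. The smallest adjusted p at 6 h was that of Ndufs4, which was lower in WT and read 4.16, 4.05 and 3.79 in Aag liver at 6 h. Its difference of responses was 0.50 (adjusted p = 0.307). At 48 h it was that of Cox8b, at 1.15 (adjusted p = 0.132). Ndufs4 and Cox8b were picked here for the smallest p. With the set term Atp5o was lower at 48 h, at -0.73 (adjusted p = 0.036, background 1.35%), against -0.49 (adjusted p = 0.283) without it.

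Treated arrays all belong to the lower set, and genotypes and times were also compared among them. The hybridization controls still varied within it. They were 6.42 and 9.22 in WT and 6.59, 8.63 and 8.47 in Aag arrays at 6 h, and 7.55 and 7.19 in WT and 8.11, 8.20 and 8.29 in Aag arrays at 48 h, where the genotypes do not overlap. Their part in the differences below was not tested. At 6 h 11 members lay higher in all Aag arrays than in both WT arrays and 0 lower, against 6.25% and 2.71% of all probe sets. At 48 h 5 lay higher and 30 lower (19.4% and 11.1%), and the 30 were 17 of complex I, 1 of II, 4 of III, 1 of IV and 7 of V. By time, 24 lay higher and 3 lower at 12 h (13.4% and 15.3%) and 3 and 2 at 24 h (10.6% and 8.64%). The level of complex I at 48 h was 0.09 and 0.08 in the WT arrays and -0.10, -0.07 and -0.11 in the Aag arrays. Limma called 0 members in each of these 4 comparisons (background 0.11%, 0.0138%, 0% and 0%), with 10, 0, 0 and 1 at an unadjusted p under 0.05. Without WT 6 h replicate 1 it called 26 at 6 h, 22 higher and 4 lower in Aag liver. The members of the 48 h group nearest to a call were Atp5d 161047_at (0.50) and Ndufb5 (-0.48), both at adjusted p = 0.994.

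Later WT arrays were higher than early ones. From 6 to 48 h 34 members lay above both 6 h arrays in both 48 h arrays and 0 lay below them (background 10.4% and 8.59%), with 13 in complex I, 3 in II, 6 in III, 4 in IV and 8 in V. The median difference was 0.33, with 67 of 81 above 0, and 0.32, 0.54, 0.49, 0.24 and 0.22 for complexes I to V. Limma called 0 (background 0.537%) with 26 at an unadjusted p under 0.05, and the smallest adjusted p was that of Sdhd, at 0.57 (adjusted p = 0.0772). Without WT 6 h replicate 1 it called 32, 30 higher and 2 lower. With the set term, which leaves these differences as they are but changes the error, Ndufb5 (0.84, adjusted p = 0.0487) and Atp5o (0.55, adjusted p = 0.0437) were called (background 1.18%). In Aag liver the median difference from 6 to 48 h was 0.08, 13 members lay higher and 6 lower without overlap (background 11.8% and 10%), and limma called 0 (background 0.0964%), with 4 at an unadjusted p under 0.05.

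The name of a probe set tells whether its probes can match other transcripts or were chosen by relaxed rules, which Affymetrix marks with a letter such as f, r, g, i or s. Members with such a letter had the larger falls. At 6 h in WT liver 12 of 27 fell, or 44.4%, against 15.1% of all lettered probe sets, while 9 of 54 plain ones fell, or 16.7%, against 8.7% of all plain ones. At 12 h these were 10 of 27 (37%, against 16.8%) and 7 of 54 (13%, against 9.05%). Probe sets of Atp5d and of Ndufb2 had opposite signs in all 8 responses to MMS, those of Atp5g2 at WT 6 h, while those of Cox4i1 shared a sign in all 8.

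**Figure D4:**
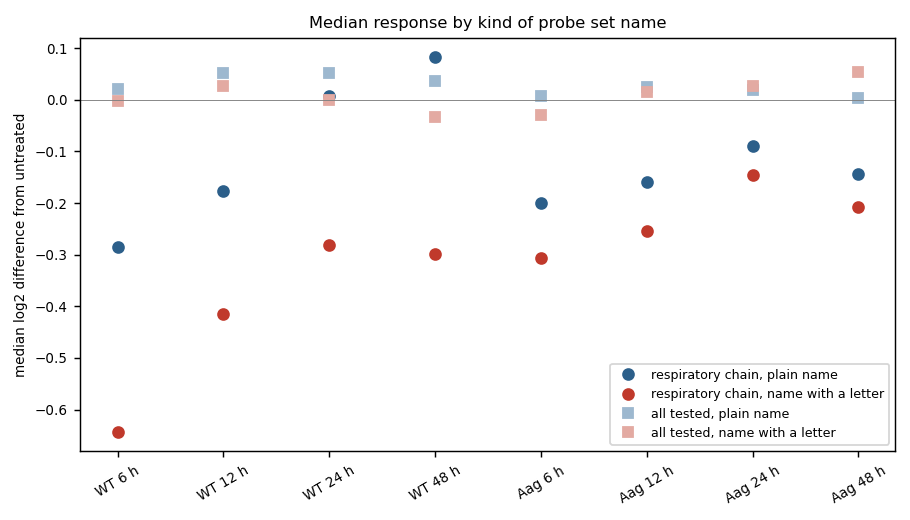
Median log2 difference from untreated liver of the same genotype at each time, for the 54 members with a plain probe set name, the 27 with a letter in the name, and all 5734 plain and 1527 lettered probe sets tested. Members with a letter lie lowest at every time, at -0.64 for WT 6 h, and both kinds over all probe sets stay within 0.1 of 0.

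Other genes of mitochondrial energy metabolism were taken from lists written from general knowledge. Their counts stand against the same background of all probe sets, 10.1% lower and 8.26% higher at WT 6 h. At WT 12, 24 and 48 h the background was 10.7%, 8.17% and 9.21% lower, and at 48 h 7.4% higher. Of 57 probe sets of the mitochondrial ribosome, which translates the subunits encoded in mitochondrial DNA, 13 fell and 1 rose at WT 6 h (median -0.24), and 11, 6 and 7 fell at 12, 24 and 48 h. Mrps16 was among them at -0.67 (adjusted p = 0.00677). Electron carriers had 2 of 9 lower at 6 h, Cyc1 (cytochrome c1 of complex III, 95072_at) at -0.96 (adjusted p = 0.000744) and Etfb of fatty acid oxidation at -0.39. The citric acid cycle had 1 of 16 lower at 6 h (Dlat, -0.56) and 2 higher and 0 lower at 48 h, Dlst (0.97) and Ogdh (0.45) of the oxoglutarate dehydrogenase complex. Among 10 probe sets of carriers and pores 2 were higher and 3 lower at 48 h. The carnitine carrier Slc25a20 rose by 0.76 (SE 0.17) and was 1.09 (adjusted p = 0.00865) with the set term. The adenine nucleotide carrier Slc25a5 (100619_r_at) fell by 0.67 at 24 h and by 0.75 with the term (adjusted p = 0.0258). The term is given in these lists for Slc25a20 and Slc25a5 alone, which stayed called with it. Of 8 probe sets of regulators of mitochondrial biogenesis 2 rose and 1 fell at 6 h. Yy1 was 0.70 and probe sets of Polrmt, the mitochondrial RNA polymerase, were 0.46 and -0.78. Of 15 probe sets for import and folding 1 fell at 6 h (Lonp1, -0.77), and of 5 for assembly 1 rose (Foxred1, 0.70). Each value named from these lists is of a single probe set. Cyc1, Etfb, Dlat, Dlst, Slc25a5, Yy1 and Lonp1 have further probe sets on the array, whose values are not given here. In Aag liver 4 calls were made over all 7 lists and 4 times, against the backgrounds given above for Aag liver.

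A muscle form of complex IV was high in 3 arrays of different groups. Cox6a2, the muscle form of subunit 6a, read 5.89 in WT 48 h replicate 1, 5.74 in Aag 24 h replicate 4 and 5.72 in Aag 48 h replicate 1, and 4.60 to 5.24 in the other 25 arrays. These are the 3 arrays highest in Acta1, skeletal muscle actin, which read 7.66, 7.23 and 6.89 there and 3.09 to 6.00 elsewhere. Myl1, a muscle myosin light chain, read 5.27, 5.58 and 5.13 in them, but also 5.147 in WT untreated replicate 3, whose Cox6a2 was 5.02. Tnnt3, of the same muscle list, read 4.143, 4.209 and 3.306 in them. It read 4.035 in WT untreated replicate 3 and 3.622 in Aag 12 h replicate 1, so Myl1 and Tnnt3 do not single out the 3 arrays. Of the skeletal muscle list 9 of 12 probe sets were above the filter. Cox7a1, also of muscle, stayed at 1.38 to 2.61 in all arrays and was not tested. Cox8b read 5.69, 5.51 and 5.78 in the 3 arrays, within the range of all treated arrays (4.94 to 5.87). The part of other tissue in these values was not tested.

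**Figure D5:**
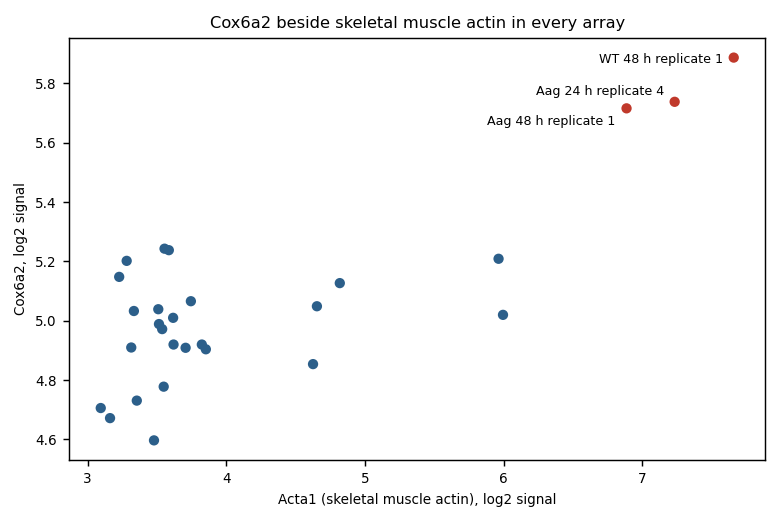
Log2 signal of Cox6a2 against that of Acta1 in each of the 28 arrays, with the 3 arrays highest in Acta1 named and in red. Those arrays have Cox6a2 at 5.72 to 5.89, and the other 25 lie at 4.60 to 5.24.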

How the data were processed

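The authors deposited 1 value per probe set and array for 28 MG-U74Av2 arrays. The deposited values were taken as log2 signals summarised per probe set by the authors, from their range of 0.689 to 13.2 alone. Their making by the authors involved steps not given in the sources used here, such as background correction, probe summary and any scaling between arrays. The 66 control probe sets were left out. Array medians differed by 0.215, so the values were quantile normalized. Probe sets above their array's median in 2 or more arrays were kept (7261). Each comparison was fitted with limma 3.58.1 (eBayes with trend, R 4.3.3) on 10 group means over all 28 arrays, with Benjamini-Hochberg adjustment over all probe sets tested. The fit was tested on simulated data. Gene symbols came from the platform annotation, and 10 probe sets with several symbols were left out. Promoter letters were searched in Python 3.11.15, and figures drawn with matplotlib 3.10.9.

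In each comparison up to 10 called members in each direction were named by smallest adjusted p, and a panel of core subunits whatever their values. Ndufb8, Ndufb10, Ndufb2, Ndufv2, Ndufa6, Uqcrb, Uqcrc2, Uqcr11, Uqcrh and Cox6c at WT 6 h, Atp5o, Cox6a2, Cox7a1, other probe sets of named genes and members given for the smallest p were named after their values were seen. The members, gene lists, array sets and tests were chosen with earlier results of these data known. Alternatives were the values as deposited, no brightness filter, 1 probe set per gene, the replicate number as a block, the array set as a term, the lower set alone, omission of 3 arrays with female-typical transcripts, and omission of each array.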

Additional observations from a re-analysis of the deposited data

Results flagged for a closer look

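In groups of 4 arrays, the gap of the lowest or highest array to its neighbour was compared with Dixon's limit for the members named. Of 64 such checks 1 passed. Sdha (94080_at) read 4.73 in Aag 24 h replicate 2, against 5.16 to 5.22 in the other 3 arrays of that group. Replicates 1 and 2 of the group have female-typical transcripts and replicates 3 and 4 have not. Chance alone passes about 1 in 20 groups.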

How the results depend on the processing

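Counts of called members of the 81 tested moved as follows. As deposited, 13 were called at WT 6 h (21 when scaled), 2 at Aag 6 h and 1 between untreated genotypes. With no brightness filter 14 were called at WT 48 h, 0 at Aag 6 h, 5 between untreated genotypes and 1 in each of the response differences at 12, 24 and 48 h. With 1 probe set per gene 5 were called at WT 48 h. The set term left 1, 1, 2 and 1 calls at WT 6, 12, 24 and 48 h, 0 at Aag 6 h, 1 between untreated genotypes, 1 in the response difference at 48 h and 2 from WT 6 h to 48 h. Of 46 named calls 2 kept their call with that term, 42 lost it and 2 turned in sign at WT 48 h, Cox4i1 102124_f_at (0.0515, adjusted p = 0.947) and Uqcrc2 102000_f_at (0.0346, adjusted p = 0.948). Without the 3 arrays with female-typical transcripts 0 were called at Aag 6 h and 4 between untreated genotypes. Against the lower set alone 0 were called at Aag 6 h.

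Leaving out each array in turn gave 14 to 40 calls at WT 6 h, 14 to 23 at 12 h, 4 to 13 at 24 h and 3 to 13 at 48 h. In Aag liver it gave 0 to 8, 0 to 3, 0 to 6 and 0 to 14, each highest without Aag untreated replicate 1, a lower-set array. Between untreated genotypes it gave 0 to 4, between genotypes at 6 h 0 to 26, and from WT 6 h to 48 h 0 to 32. Of 249 named values so recomputed 193 kept their call. With the replicate number as a block (replicate block), 19, 18, 10 and 7 members were called at the 4 WT times, 0 at Aag 6 h and 2 between untreated genotypes, and 42 of 46 named calls held. In no comparison of 3 or more pairs did every pair deviate together (-0.28 to 0.03 at WT 12 h), so the numbers are not taken to pair arrays. With 2 pairs both were over 0.1 in 5 comparisons, each array correlating best with its own number, up to 0.77 and 0.91 for Aag 6 h against WT 6 h. From WT 6 h to 48 h both pairs correlated at -0.73, and the crossed pairing also called 0 members, with 26 at an unadjusted p under 0.05. Groups of 2 to 4 arrays and members near background limit the precision, and leaving out 1 of 2 arrays assumes that the other varies like the rest.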

Other observations

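The 6 h arrays with the lowest hybridization controls were replicate 1 of each genotype (6.42 in WT and 6.59 in Aag liver). Several members read higher in them than in the other arrays of their group. Sdha read 6.13 and 6.48 there and 3.87 to 5.06 in the other 3 arrays at 6 h. Ndufs1 read 6.58 and 6.71 there, against 5.53 in WT replicate 2 and 6.15 and 6.54 in Aag replicates 2 and 3. Cox8b was lower there, at 5.15 and 4.94, against 5.50 to 5.87 in the other 3 arrays. These members were chosen after their values were seen, and what these arrays share beyond the controls was not tested.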
